A study of Mus musculus with 7 samples.

Results

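Messenger RNA of 10 T cell and cytotoxic genes was examined in colon tumors of mice that carried Dnmt3a+/Δ or Dnmt3a+/+ bone marrow (BM). The 10 genes were taken by their symbols from the 43346 genes of the count table: Cd3d, Cd3e and Cd3g of the T cell receptor complex, the coreceptor genes Cd4, Cd8a and Cd8b1, the regulatory T cell factor Foxp3, and the granule genes Gzma, Gzmb and Prf1. All 10 were in the table. Donor mice of both groups carried the interferon-inducible Mx1-Cre transgene and received poly(I:C), which deleted a floxed Dnmt3a allele in the Dnmt3a+/Δ donors, a model of clonal hematopoiesis. The BM was transplanted into lethally irradiated wild-type recipients, which the sample labels give as C57BL6/J and 8 wk old and the study's methods as a congenic strain and younger. Colitis-associated colon cancer was then induced with the carcinogen azoxymethane (AOM, 10 mg/kg, 1 dose) and then dextran sulfate sodium (DSS, 3% in 3 cycles), which injures and inflames the colon. Whole tumors were sequenced, 3 with Dnmt3a+/+ BM and 4 with Dnmt3a+/Δ BM, so host epithelium, stroma and radio-resistant host leukocytes are in the samples together with graft-derived cells.

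T cells recognize peptides on other cells through the T cell receptor, whose antigen-binding chains signal through the CD3 proteins and the zeta chain. Helper T cells carry CD4, killer T cells carry CD8, a dimer of the Cd8a and Cd8b1 products or of 2 Cd8a products, and regulatory T cells, which restrain inflammation in the gut, depend on the transcription factor Foxp3. Killer T cells and natural killer (NK) cells lyse their targets with granules, in which perforin, the Prf1 product, opens the membrane and granzymes such as the Gzma and Gzmb products enter and cleave proteins.

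The genes of the CD3 proteins lie side by side on chromosome 9 of GRCm38. Cd3g (44969572 to 44980431, minus strand) and Cd3d (44981786 to 44987339, plus strand) start 1355 bases apart and point away from each other, and Cd3e (44998740 to 45009627, minus strand) follows. Cd8b1 (71322788 to 71337494) and Cd8a (71373427 to 71379173) are neighbors on the plus strand of chromosome 6, 35933 bases apart, and Cd4 lies elsewhere on chromosome 6 (124864692 to 124888221, minus strand). Gzma is on chromosome 13 (113093825 to 113100981, minus strand), Gzmb on chromosome 14 (56258838 to 56262260, minus strand), Prf1 on chromosome 10 (61297833 to 61304680, plus strand) and Foxp3 on chromosome X (7573644 to 7595245, plus strand). Cd3e and Foxp3 overlap other annotated genes, Foxp3 among them Ppp1r3f and Ccdc22 on the opposite strand. The library kit kept strand, but a strand setting of the counting was not given in the sources used here, so reads of these overlaps may be shared.

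The sequences just upstream of the Cd3 genes and of the granzyme genes are shown as examples of genes whose transcripts were lowest in the same tumor. Those of Cd8a and Prf1, also lowest there, are not shown. A link between these sequences and that tumor was not tested. The sequences shown are from RefSeq, GRCm38.p6, which had promoter entries for 8 of the 10 genes and none for Cd4 or Cd8b1. Each runs 5′ to 3′ on its gene's strand and ends just before the outermost annotated start, at chr9:44980432-44980681 for Cd3g, chr9:44981536-44981768 for Cd3d, chr9:45009664-45009861 for Cd3e, chr13:113100982-113101231 for Gzma and chr14:56262335-56262584 for Gzmb. Capitals mark the ETS-type motif AGGAAG or the RUNX core TGTGGT on either strand, which read CTTCCT and ACCACA when on the other strand.
Cd3g: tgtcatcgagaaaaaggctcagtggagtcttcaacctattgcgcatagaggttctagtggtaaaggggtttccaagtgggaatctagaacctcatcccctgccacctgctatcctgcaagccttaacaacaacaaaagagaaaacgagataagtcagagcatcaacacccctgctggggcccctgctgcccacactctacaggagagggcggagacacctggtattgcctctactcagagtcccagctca
Cd3d: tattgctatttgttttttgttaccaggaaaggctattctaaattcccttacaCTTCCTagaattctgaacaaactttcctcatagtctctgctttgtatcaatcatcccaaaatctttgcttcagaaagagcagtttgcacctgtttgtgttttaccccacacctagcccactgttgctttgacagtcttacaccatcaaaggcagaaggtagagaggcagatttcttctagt
Cd3e: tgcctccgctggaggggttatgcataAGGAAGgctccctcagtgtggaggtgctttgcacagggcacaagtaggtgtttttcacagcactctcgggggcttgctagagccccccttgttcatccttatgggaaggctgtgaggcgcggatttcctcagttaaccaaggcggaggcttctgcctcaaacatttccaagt
Gzma: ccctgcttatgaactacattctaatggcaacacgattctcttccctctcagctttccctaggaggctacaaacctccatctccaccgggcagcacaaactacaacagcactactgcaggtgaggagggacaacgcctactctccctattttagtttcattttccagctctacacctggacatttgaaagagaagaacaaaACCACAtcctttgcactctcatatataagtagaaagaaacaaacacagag
Gzmb: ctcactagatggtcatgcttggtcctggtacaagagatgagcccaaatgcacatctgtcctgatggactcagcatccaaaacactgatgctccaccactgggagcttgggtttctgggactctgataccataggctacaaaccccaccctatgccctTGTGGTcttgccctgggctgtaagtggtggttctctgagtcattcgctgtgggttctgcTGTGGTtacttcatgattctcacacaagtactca
Cd3d and Cd3e held 1 AGGAAG motif each and Cd3g held 0. The shorter GGAA, which the Cd3g sequence also contains, was not marked or counted. Gzma held 1 RUNX core and Gzmb held 2. AGGAAG was found in 29.5% and TGTGGT in 14.0% of the 32851 mouse promoters, searched over 250 bases upstream, so these short motifs are common. The windows of Cd3d and Cd3e were cut at the outermost start to 233 and 198 bases. The cyclic AMP response motif TGACG, found in 17.8% of promoters, and the TATA box letters TATAAA, found in 12.4%, were in none of the 5. Only exact letters were searched, so variants, such as tatataag near the end of the Gzma sequence, were not counted.

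All 10 transcripts were scarce. Counts were scaled to library size by the trimmed mean of M values (TMM) and are given as CPM, a gene's count divided by the scaled library size in units of 1000000. Total counts ranged from 38472738 to 64314999 per tumor, and together the 10 genes reached 10.1 to 28.2 CPM in the Dnmt3a+/+ BM tumors and 1.92 to 33.9 CPM in the Dnmt3a+/Δ BM tumors. The tumors came from experiment BMT18 (Dnmt3a+/+ BM tumors 1 and 2, Dnmt3a+/Δ BM tumors 1 and 2) and experiment BMT8 (Dnmt3a+/+ BM tumor 3, Dnmt3a+/Δ BM tumors 3 and 4). The labels of Dnmt3a+/Δ BM tumors 2, 3 and 4 carry a further 2 after their number. Dnmt3a+/Δ BM tumor 1 and the Dnmt3a+/+ BM tumors lack it, and its meaning is not given. Where tumors 2 to 4 differ from the rest, this mark and the graft cannot be told apart. The markers fitted the labelled tissue: Epcam, a surface protein of epithelium, was at 1543 to 3239 CPM in all 7 tumors. Dnmt3a itself, read in the whole tumor and not in the graft, was at 24.3, 23.1 and 20.3 CPM with Dnmt3a+/+ BM and at 27.8, 43.0, 28.3 and 22.0 CPM with Dnmt3a+/Δ BM, which is no check of the graft's genotype. Dnmt3a+/+ BM tumor 3 stood apart in smooth muscle markers, whose mean log2 CPM was 0.62 there and 5.08 to 7.48 in the other tumors.

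For the Cd3 genes, the groups overlapped and 1 tumor was far below the rest. In Dnmt3a+/+ BM tumors 1 to 3, Cd3d was at 1.93, 0.578 and 2.57 CPM, and in Dnmt3a+/Δ BM tumors 1 to 4 at 1.77, 1.87, 1.36 and 0.0811 CPM. Cd3e was at 1.53, 0.640 and 1.71 CPM against 1.70, 1.83, 0.873 and 0.108 CPM. Cd3g was at 3.49, 1.36 and 4.50 CPM against 3.07, 3.54, 1.93 and 0.433 CPM. The lowest of all 7 in each of the 3 genes was Dnmt3a+/Δ BM tumor 4, with 3, 4 and 16 counts, and Dnmt3a+/+ BM tumor 2 was next. Its total count, 38472738, was close to the 38690736 of Dnmt3a+/+ BM tumor 3, which had 84, 56 and 147 counts. The group means were 1.27 ± 0.824 (SD, n = 4) against 1.69 ± 1.02 CPM (SD, n = 3) for Cd3d, with a log2 fold change, Dnmt3a+/Δ BM over Dnmt3a+/+ BM, of -0.40 (standard error 0.90). The log2 fold change of Cd3e was -0.19 (standard error 0.82), and it was 0.10 under scaling by library size only. That of Cd3g was -0.47 (standard error 0.70). None of the 3 passed the test (quasi-likelihood test of edgeR, adjusted p from 0.851 to 0.958 by the Benjamini-Hochberg method over all genes tested).

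The coreceptor genes showed the same low tumor. Cd4 was at 2.55, 0.640 and 1.50 CPM with Dnmt3a+/+ BM and at 1.95, 3.59, 0.853 and 0.216 CPM with Dnmt3a+/Δ BM. Cd8a was at 2.07, 1.56 and 3.06 CPM against 2.40, 2.30, 1.34 and 0 CPM. Cd8b1 was at 0.376, 0.125 and 1.07 CPM against 0.699, 0.428, 0.122 and 0 CPM. In Dnmt3a+/Δ BM tumor 4 neither CD8 chain had a count, where 0 counts allow a level of up to 0.0811 CPM (3 counts, counting error only), and Cd4 had 8 counts. The highest Cd4 was in Dnmt3a+/Δ BM tumor 2 and the highest Cd8a and Cd8b1 in Dnmt3a+/+ BM tumor 3, and the groups overlapped in all 3 genes. The log2 fold changes were 0.08 for Cd4 (standard error 0.88), -0.56 for Cd8a (standard error 1.11) and -0.72 for Cd8b1 (standard error 1.16), with adjusted p from 0.865 to 0.985. Without Dnmt3a+/Δ BM tumor 2 the value of Cd4 was -0.61, and without Dnmt3a+/+ BM tumor 3 that of Cd8b1 was 0.35. In bulk tumors, fewer T cells and less of these RNAs per T cell cannot be told apart.

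Foxp3 followed another pattern, led by a high tumor. It was at 0.457, 0.125 and 0.459 CPM with Dnmt3a+/+ BM and at 0.474, 1.61, 0.528 and 0.297 CPM with Dnmt3a+/Δ BM. Of the 4 Dnmt3a+/Δ BM tumors, 3 were above every Dnmt3a+/+ BM tumor, tumor 1 only by 0.474 to 0.459 CPM, and Dnmt3a+/Δ BM tumor 2, with 79 counts, was the highest. It was the only 1 of the 10 genes whose lowest value was not in Dnmt3a+/Δ BM tumor 4, where it had 11 counts. With a standard error of 0.75, its log2 fold change of 1.09 (edgeR, adjusted p = 0.617) was the largest of the 9 tested genes, and it was 0.38 without Dnmt3a+/Δ BM tumor 2.

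The granzyme genes had the highest mean CPM of the 10 in both groups, though not in every tumor (Cd3g was above Gzmb in Dnmt3a+/+ BM tumor 3 and above Gzma in Dnmt3a+/Δ BM tumor 4), and the largest SD in CPM among the Dnmt3a+/Δ BM tumors. Gzma was at 4.67, 2.15 and 9.76 CPM with Dnmt3a+/+ BM and at 11.3, 6.32, 3.66 and 0.352 CPM with Dnmt3a+/Δ BM. Gzmb was at 4.27, 2.65 and 3.49 CPM against 6.01, 11.7, 2.97 and 0.433 CPM. Both were lowest in Dnmt3a+/Δ BM tumor 4, but Gzma was highest in Dnmt3a+/Δ BM tumor 1 and Gzmb in tumor 2, and the groups overlapped in both. The SD of Gzmb was 4.84 CPM with Dnmt3a+/Δ BM (mean 5.27, n = 4) and 0.809 CPM with Dnmt3a+/+ BM (mean 3.47, n = 3), a difference in spread that was not tested. The log2 fold change was -0.03 for Gzma (standard error 0.95, 0.25 under scaling by library size only) and 0.60 for Gzmb (standard error 0.87), with adjusted p of 0.995 and 0.842 from edgeR's test. Without Dnmt3a+/Δ BM tumor 2 the value of Gzmb was -0.13, and without Dnmt3a+/Δ BM tumor 4 those of Gzma and Gzmb were 0.36 and 0.99.

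Prf1 was too low for the main test. It had 3, 15 and 4 counts with Dnmt3a+/+ BM and 10, 36, 8 and 0 counts with Dnmt3a+/Δ BM, at most 0.733 CPM in Dnmt3a+/Δ BM tumor 2. DESeq2, which tested it, put its log2 fold change at 0.97 (adjusted p = 0.843). Its mean CPM was the lowest of the 10 genes in both groups.

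**Figure D1:**
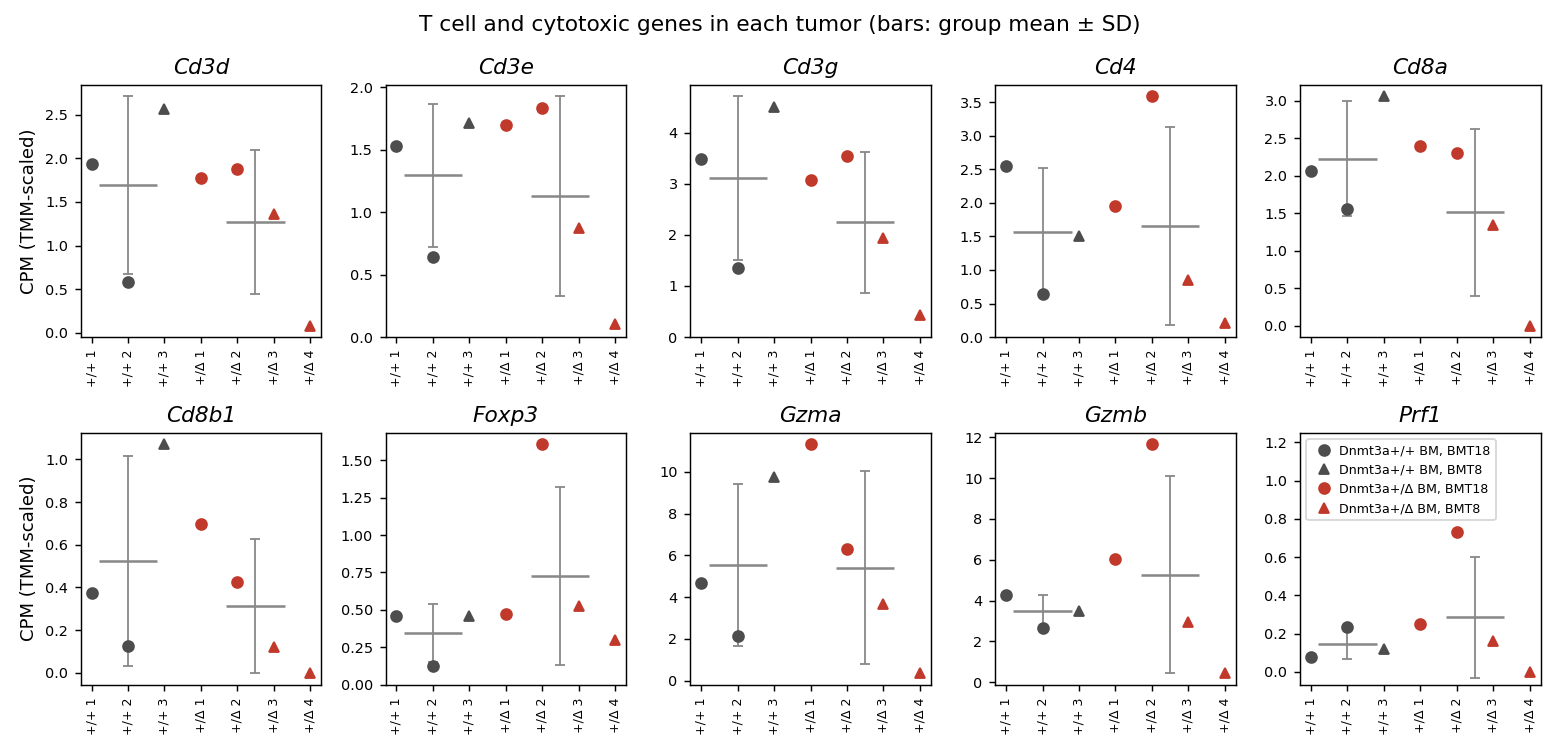
TMM-scaled CPM of the 10 genes in each tumor, 1 panel a gene, with Dnmt3a+/+ BM tumors in grey, Dnmt3a+/Δ BM tumors in red, circles for BMT18, triangles for BMT8, and bars for the group mean ± SD. The lowest point in 9 of 10 panels is Dnmt3a+/Δ BM tumor 4, and Dnmt3a+/Δ BM tumor 2 is the highest in 5.

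Of the 10 genes, 9 had enough counts to be tested among 15810 genes, and 0 were called. A call needed both an adjusted p under 0.05 and a log2 fold change beyond 1 in either direction. Over all tested genes edgeR also called 0, or 0% (lowest adjusted p 0.361). At an unadjusted p under 0.05, 11.0% of all genes stood out (5.83% higher and 5.2% lower with Dnmt3a+/Δ BM) and 0 of the 9. DESeq2 called 1.87% of the genes it tested and 0 of the 10. In 0 of the 10 genes were the groups without overlap, where 6.12% of all genes were higher and 6.32% lower in every Dnmt3a+/Δ BM tumor than in any Dnmt3a+/+ BM tumor. On the log2 CPM of each gene, an exact two-sided permutation test with 35 possible splits gave p from 0.314 to 0.943, where 0.0286 is the smallest p such a test can give. The median log2 fold change was -0.19 over the 9 genes, 3 higher and 6 lower, beside 0.003 over all genes tested. Scaling by library size only moved the median of all genes to 0.21 and made 5 of the 9 higher and 4 lower. Without Dnmt3a+/Δ BM tumor 4, 5 were above 0 and 4 below, with a median of 0.19, and without Dnmt3a+/Δ BM tumor 2, 8 were below 0, with a median of -0.61.

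Dnmt3a+/Δ BM tumor 4 was the lowest tumor for 13.6% of all genes tested and for 9 of these 10. The highest was Dnmt3a+/Δ BM tumor 2 for 24.7% of all genes and for 5 of these 10. The 10 genes are transcripts of a few related cell types and are not independent readings of a tumor.

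The group difference had opposite signs in the 2 transplantation experiments. In 1 fit with a group effect in each experiment, all 9 tested genes were above 0 within BMT18 and below 0 within BMT8, where 18.6% of all genes had that combination of signs. Within BMT18 the log2 fold changes ran from 0.37 for Cd8a to 1.87 for Foxp3, with a median of 0.80. Within BMT8 they ran from -0.14 for Foxp3 to -3.98 for Cd8b1, with a median of -1.81. In Cd3e, Cd8a, Cd8b1, Gzma and Gzmb, 5 of the 10 genes, every Dnmt3a+/Δ BM tumor was above both Dnmt3a+/+ BM tumors in BMT18 and below the Dnmt3a+/+ BM tumor in BMT8, beside 4.82% of all genes. The difference between the experiments itself had an unadjusted p under 0.05 in 1 of the 9 genes, Cd8b1 (-5.17 on the log2 scale, standard error 1.73). That share was 4.62% over all genes, and edgeR gave an adjusted p of 1.0 in all 9. BMT8 has 1 Dnmt3a+/+ BM tumor, the one that stood apart in smooth muscle markers, and 1 of its 2 Dnmt3a+/Δ BM tumors is tumor 4, so its values rest on 3 tumors.

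**Figure D2:**
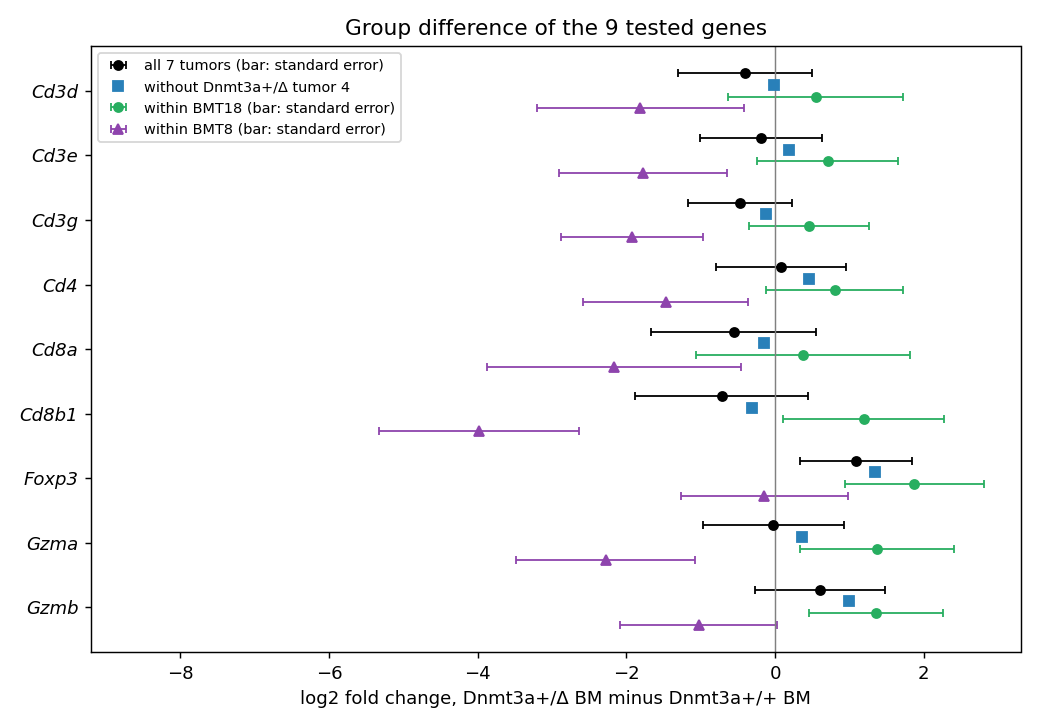
Log2 fold change, Dnmt3a+/Δ BM minus Dnmt3a+/+ BM, of the 9 tested genes from all 7 tumors, without Dnmt3a+/Δ BM tumor 4, and within each experiment, with standard errors as bars. The BMT18 values lie right of 0 and the BMT8 values left of 0 for every gene, with bars that often cross 0.

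Levels of different genes were compared per length, as CPM per kilobase of the longest annotated transcript. Gzma was the highest with 5.48 ± 3.99 (SD, n = 7), followed by Gzmb with 3.13 ± 2.50 (SD, n = 7). The Cd3 genes were unequal, Cd3g with a mean of 1.03, Cd3d with 0.898 and Cd3e with 0.470. Cd8a (0.581) and Cd4 (0.519) lay between them, and Cd8b1 (0.272), Foxp3 (0.147) and Prf1 (0.0914) came last. Gzmb was above Cd3g in 7 of 7 tumors, and Gzma above Gzmb in 6 of 7. Cd8a and Cd4, Cd4 and Cd3e, and Cd8b1 and Foxp3 were not ordered alike across tumors, with the first of each pair higher in 4, 3 and 4 of 7. Per kilobase of coding length, Cd3e moved ahead of Cd4 and the order was otherwise kept.

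**Figure D3:**
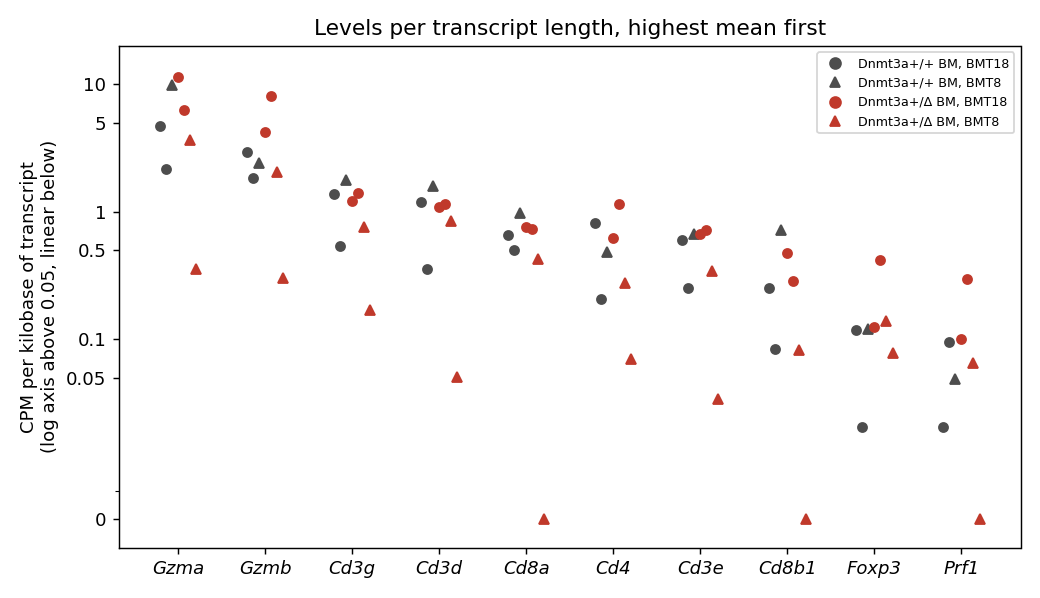
CPM per kilobase of the longest transcript for each gene and tumor, ordered by mean, on an axis that is logarithmic above 0.05 and linear below, with colors for the graft and shapes for the experiment. The granzymes lie highest and Prf1 lowest, and the 3 points at 0 are Cd8a, Cd8b1 and Prf1 in Dnmt3a+/Δ BM tumor 4.

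Ratios of counts within a tumor do not depend on the scaling between libraries. Per count of Cd3e, Foxp3 had 0.298, 0.195 and 0.268 counts with Dnmt3a+/+ BM and 0.279, 0.878, 0.605 and 2.75 counts with Dnmt3a+/Δ BM. Dnmt3a+/Δ BM tumors 2 to 4 were above all Dnmt3a+/+ BM tumors and tumor 1 was within their range, and the ratio in tumor 4 rests on 11 and 4 counts. Tumors 2 to 4 are those with the further 2 in their labels, which cannot be told apart from the graft here. Gzmb had 2.79, 4.15 and 2.04 counts per count of Cd3e with Dnmt3a+/+ BM and 3.54, 6.37, 3.40 and 4.00 with Dnmt3a+/Δ BM. Tumor 4, low in both genes, lay within the range of the others in their ratio, on only 16 and 4 counts. The ratio of Cd8a to Cd4 was 0.811, 2.44 and 2.04 against 1.23, 0.642, 1.57 and 0, lowest in tumor 4 with no Cd8a count. Cd8b1 was at 0.0800 to 0.350 of Cd8a in the 6 tumors with CD8 counts, and Gzma at 0.541 to 2.80 of Gzmb in all 7, both with overlapping groups. Per count of Ptprc, which encodes the pan-leukocyte antigen CD45, Cd3e had 0.0934, 0.0956 and 0.163 counts with Dnmt3a+/+ BM and 0.113, 0.0845, 0.0850 and 0.0165 counts with Dnmt3a+/Δ BM. Tumor 4 was thus low in Cd3e relative to a leukocyte transcript too, on 4 counts of Cd3e. Ptprc itself was as low in Dnmt3a+/+ BM tumor 2 (6.70 CPM) as in Dnmt3a+/Δ BM tumor 4 (6.57 CPM).

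Cd3d, Cd3e and Cd3g moved together over the tumors, and 5 of the 10 genes most like them are known from T or NK cells. The mean log2 CPM of the 3 genes served as the reference, and 0.67% of all genes tested had a Pearson correlation over 0.9 with it across the 7 tumors. The 10 most similar genes outside the 10 described here were Ctsw, Skap1, Ifi44, Ccl5, Traf3ip3, Cxcr6, Cd96, Nrxn2, Csf3r and Emc10, with r from 0.99 to 0.97. Ctsw encodes a cathepsin of killer and NK cells, Skap1 an adaptor of T cell receptor signaling, Ccl5 a chemokine of activated T cells, and Cxcr6 and Cd96 surface receptors of T and NK cells, whereas Csf3r encodes the growth factor receptor of neutrophils. Without Dnmt3a+/Δ BM tumor 4 their r ranged from 0.88 to 0.96 over 6 tumors. The points share libraries and 1 very low tumor, so r is given as a description. An r over 0.9 was not particular to T and NK cell genes. It was found in 28.6% of tested T cell receptor chain and signaling genes and 25.0% of cytotoxic effector and NK receptor genes. Of the 6 neutrophil markers, 33.3% had it, Csf3r (0.98) and Cxcr2 (0.96), with 0.90 and 0.80 without Dnmt3a+/Δ BM tumor 4. Of the 10 genes, Gzma followed the reference at r = 0.97, Cd8a at 0.95, Cd8b1 at 0.94, Cd4 at 0.92 and Gzmb at 0.90, against 0.51 for Foxp3. Without tumor 4 Gzma was at 0.87, Cd8a at 0.83, Cd8b1 at 0.88, Cd4 at 0.82 and Gzmb at 0.57, and Foxp3, at 0.69, was then above Gzmb.

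Other genes of T cell receptor signaling were on average lowest in Dnmt3a+/Δ BM tumor 4 too, but some were not low there. The mean log2 CPM of their list was -1.02 in that tumor and -0.71 in the next lowest, Dnmt3a+/+ BM tumor 2. Of its 21 tested genes, 6 had an r over 0.9 with the Cd3 reference over 7 tumors. The list of receptor chains and signaling genes held 23 genes, of which 21 were tested, 13 higher and 8 lower, with a median log2 fold change of 0.25, which was -0.03 without Dnmt3a+/Δ BM tumor 2 and -0.13 without Dnmt3a+/+ BM tumor 2. In this list edgeR called 0 genes and DESeq2 called 2, Zap70 and Prkcq, where DESeq2 called 1.87% of all genes it tested. Over the 7 lists of T cell and cytotoxic pathways, 8 of 73 tested genes, or 11.0%, had an unadjusted p under 0.05, the same share as over all genes tested, and DESeq2 called 3. Zap70 and Prkcq were the 2 of those 8 in the receptor list, both higher. Zap70, the kinase that binds the phosphorylated CD3 and zeta chains, was at 2.74, 1.28 and 2.60 CPM with Dnmt3a+/+ BM and at 2.85, 8.78, 8.84 and 7.22 CPM with Dnmt3a+/Δ BM. Prkcq, the protein kinase C of T cell activation, was at 1.18, 0.874 and 0.734 CPM against 2.02, 5.11, 5.08 and 2.33 CPM. In both genes the groups did not overlap, as in 6.12% of all genes that were higher, and Dnmt3a+/Δ BM tumor 4, where Cd3d had 3 counts, was above every Dnmt3a+/+ BM tumor. Both were named for their unadjusted p in these data, so the lack of overlap is no separate support. For Zap70 the gap was only 2.85 to 2.74 CPM, in Dnmt3a+/Δ BM tumor 1, which lacks the further 2 in its label. The log2 fold change was 1.65 for Zap70 (standard error 0.49, adjusted p = 0.377 from edgeR and 0.029 from DESeq2) and 1.96 for Prkcq (standard error 0.49, adjusted p = 0.361 from edgeR and 0.00447 from DESeq2). Their r with the Cd3 reference was -0.19 and -0.08 over 7 tumors, and 0.31 and 0.05 without Dnmt3a+/Δ BM tumor 4. Within the windows of 100 bases that tile its longest transcript, Prkcq shared 3.10% with other genes and Zap70 0%.

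Trac and Trbc1, genes of the receptor chains, parted from the Cd3 genes in tumor 4. Over all 7 tumors the r with the Cd3 reference was 0.27 for Trac, -0.63 for Trbc1 and 0.46 for Trbc2, and without tumor 4 it was 0.80, 0.61 and 0.61. Trac, the constant region of the alpha chain, was at 0.109 to 0.296 CPM with Dnmt3a+/+ BM and 0.244 to 0.469 CPM with Dnmt3a+/Δ BM, so its r rests on few counts. Trbc1, a constant region of the beta chain, was highest in Dnmt3a+/Δ BM tumor 4, at 4.22 CPM beside 0.874 to 1.85 CPM in the other tumors. Trbc1 and Trbc2 share 28.7% and 30.9% of their transcript windows with each other, so their counts rest on how reads were divided between them. Lck, the kinase that starts receptor signaling, was at 3.81 CPM in tumor 4, inside the range of 2.78 to 9.62 CPM of the others, and Lat, the adaptor that Zap70 phosphorylates, was lowest there, at 0.379 CPM beside 0.640 to 2.60 CPM. Which cells these transcripts came from was not tested.

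**Figure D4:**
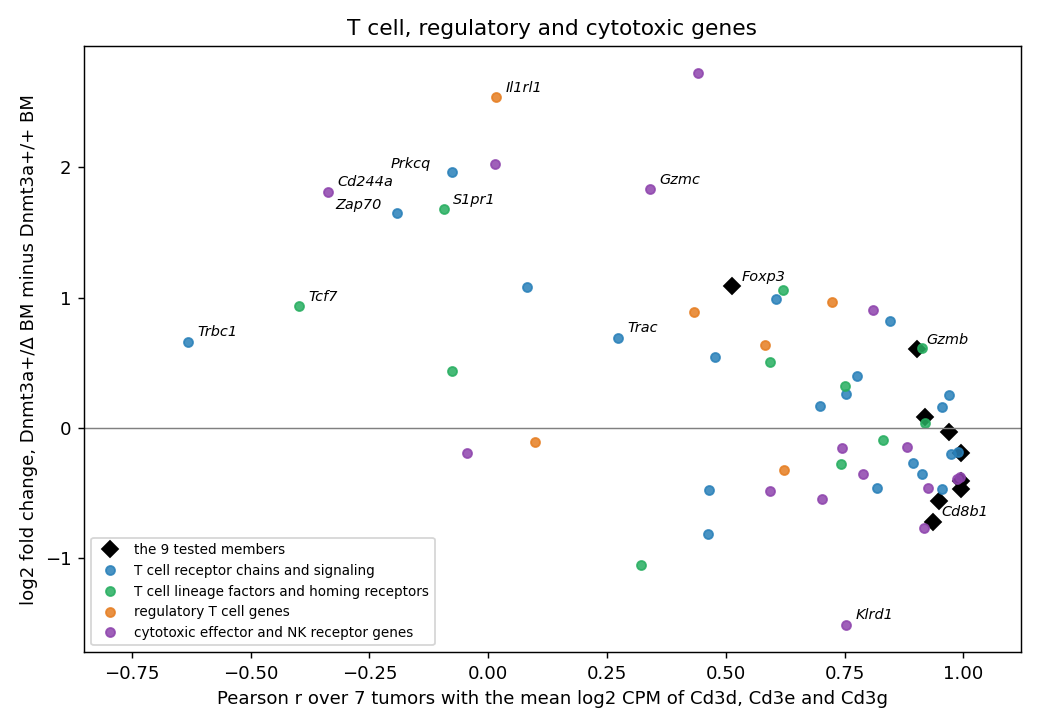
Log2 fold change between the grafts against the Pearson correlation with the mean log2 CPM of Cd3d, Cd3e and Cd3g over 7 tumors, for the 9 tested members and for 4 lists of T cell and cytotoxic genes. The members other than Foxp3 lie at r of 0.90 or more with log2 fold changes from -0.72 to 0.60. Zap70, Prkcq, Cd244a, Tcf7 and S1pr1 lie at r below 0 with log2 fold changes from 0.93 to 1.96. Without Dnmt3a+/Δ BM tumor 4, r is 0.45 for S1pr1 and 0.04 to 0.31 for the others of these. Trbc1, Bcl11b and Gzmm also lie below 0, with log2 fold changes of 0.66, 0.44 and -0.19. Their r without that tumor is 0.61, 0.41 and 0.06.

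Lineage factors and homing receptors of T cells (12 genes, 11 tested) were 8 higher and 3 lower, with a median log2 fold change of 0.44, and 5 higher and 6 lower without Dnmt3a+/Δ BM tumor 2, with a median of -0.06. Tcf7, a T cell factor that also acts in Wnt signaling in the gut epithelium, was at 14.9, 18.7 and 19.7 CPM with Dnmt3a+/+ BM and at 19.8, 43.4, 33.7 and 38.8 CPM with Dnmt3a+/Δ BM. S1pr1, the sphingosine phosphate receptor by which lymphocytes leave tissues and which endothelium also carries, was at 1.58 to 3.09 CPM against 3.74 to 13.8 CPM. Their log2 fold changes were 0.93 and 1.68, both with an unadjusted p under 0.05 and without overlap between groups, and their adjusted p were 0.377 and 0.392 from edgeR's test. They were named for that unadjusted p, so the lack of overlap is no separate support, and for Tcf7 the gap was only 19.8 to 19.7 CPM. The other genes of regulatory T cells (8 genes, 6 tested) were 4 higher and 2 lower, with a median of 0.76, and of -0.04 without Dnmt3a+/Δ BM tumor 2. Il1rl1, the interleukin-33 receptor of regulatory T cells, mast cells and other cells, was the 1 gene of that list with an unadjusted p under 0.05, at 8.97 to 15.7 CPM with Dnmt3a+/+ BM and at 19.8, 224, 22.8 and 31.7 CPM with Dnmt3a+/Δ BM. Its log2 fold change of 2.54 was 0.98 without tumor 2. Il2ra and Ctla4, the interleukin-2 receptor chain and the checkpoint receptor of regulatory T cells, were also highest in tumor 2, at 3.40 and 4.54 CPM, and overlapped between groups. Tumor 2 was the highest tumor for 24.7% of all genes tested. The 2 lower genes of the list were Ikzf2 and Tnfrsf18, with log2 fold changes of -0.11 and -0.32.

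Cytotoxic effector and NK receptor genes beyond the members (21 genes, 16 tested) were 5 higher and 11 lower, with a median log2 fold change of -0.27, and 9 higher and 7 lower without Dnmt3a+/Δ BM tumor 4, with a median of 0.01. Without Dnmt3a+/+ BM tumor 1 the median was 0.26. Cd244a, a receptor of NK cells and killer T cells, was at 2.58, 2.94 and 3.40 CPM with Dnmt3a+/+ BM and at 5.37, 12.8, 12.2 and 11.4 CPM with Dnmt3a+/Δ BM. It had the lowest unadjusted p of any listed gene, with a log2 fold change of 1.81 and a standard error of 0.36 (adjusted p = 0.361 in edgeR and 0.000356 in DESeq2), and stayed between 1.72 and 2.05 with each tumor left out in turn. Gzmc, a granzyme gene near Gzmb, had a log2 fold change of 1.83 with overlapping groups, highest in tumor 2 at 7.76 CPM, and 1.07 without it. Klrd1, which encodes the CD94 chain of NK receptors, had a log2 fold change of -1.51, at 2.02, 0.546 and 3.18 CPM against 0.998, 0.815, 0.508 and 0.352 CPM. Ccl5 and Nkg7, a granule protein gene, each had 0.0270 CPM in Dnmt3a+/Δ BM tumor 4, 1 count, beside at least 0.896 CPM in every other tumor. Checkpoint receptors and ligands (7 genes, all tested) had a median of 0.05, which lay between -0.17 and 0.56 with each tumor left out in turn, with Cd274, the ligand PD-L1, at 2.11 CPM in Dnmt3a+/Δ BM tumor 4 and 8.57 to 24.5 CPM in the others.

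T cell cytokines were mostly too low to be tested, with 3 of 11 tested (Ifng, Il17a and Tnf) and a median log2 fold change of -0.03, between -0.86 and 0.42 with each tumor left out in turn. Ifng, the main cytokine of killer and type 1 helper T cells, was at 0.349, 0.468 and 1.47 CPM with Dnmt3a+/+ BM and at 0.624, 1.30, 0.244 and 0 CPM with Dnmt3a+/Δ BM. Chemokines that attract T cells and their receptors (10 genes, 9 tested) were 5 higher and 4 lower, with a median of 0.16 and no gene at an unadjusted p under 0.05. They were 2 higher and 7 lower without Dnmt3a+/Δ BM tumor 2, with a median of -0.54, and without Dnmt3a+/+ BM tumor 3 the median was -0.02. Cxcl9, an interferon-gamma-induced ligand of Cxcr3, was at 6.23 to 45.5 CPM with Dnmt3a+/+ BM and at 22.3, 130, 7.09 and 2.14 CPM with Dnmt3a+/Δ BM. Its highest and lowest values were thus both with Dnmt3a+/Δ BM, in tumors 2 and 4, as for Cd4 and Gzmb.

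Markers of other cells differed between the same tumors. The 10 leukocyte markers had a mean log2 CPM of 1.45 in Dnmt3a+/Δ BM tumor 4, 1.55 in Dnmt3a+/+ BM tumor 2 and 3.66 in Dnmt3a+/Δ BM tumor 2. Tumor 4 was thus near the next lowest tumor in leukocyte markers, whereas in the Cd3 genes its mean log2 CPM was -2.25 beside -0.25 in the next lowest. Summed over the 10 macrophage markers, levels were 150.0 to 239.9 CPM with Dnmt3a+/+ BM and 158.4 to 371.8 CPM with Dnmt3a+/Δ BM, and the neutrophil markers had a mean log2 CPM of 3.93 in tumor 4 beside 3.75 to 4.38 in the others. Not every neutrophil marker was like that mean. Csf3r was lowest in tumor 4, at 2.49 CPM beside 5.10 to 8.88 CPM in the others. Of the 4 NK cell markers, Ncr1 was at 0 to 0.108 CPM and Eomes, which killer T cells also express, at 0.0537 to 0.978 CPM. Summed, the 4 were at 0.484 to 1.19 CPM with Dnmt3a+/+ BM and 0.349 to 1.35 CPM with Dnmt3a+/Δ BM. In tumor 4 the sum was 0.406 CPM, all of it Eomes, beside 0.352 CPM of Gzma and 0.433 CPM of Gzmb. Csf1r of macrophages was at 5.62 to 42.0 CPM, and Cpa3 of mast cells at 0 to 4.67 CPM, highest in Dnmt3a+/Δ BM tumor 2. The part of cell composition in the values of the 10 genes was not tested.

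Over the marker lists, neither edgeR nor DESeq2 called a gene, and 6 of 71 tested genes, or 8.45%, had an unadjusted p under 0.05, beside 11.0% of all genes. Leukocyte markers had a median log2 fold change of 0.39 (10 tested, 9 higher), macrophage markers 0.79 (10 tested, 8 higher), dendritic cell markers 0.40 (4 of 7 tested), neutrophil markers -0.17 (6 tested, 1 higher), NK cell markers 0.40 (1 of 4 tested) and mast cell markers 1.83 (8 tested, 7 higher). B cell markers had a median of 1.35 (5 of 8 tested, all higher), plasma cell markers 1.65 (3 of 4 tested, all higher) and lymphoid follicle markers 1.52 (4 of 7 tested, all higher). Epithelial markers had a median of -0.52 (8 tested, 7 lower), smooth muscle markers 0.08 (6 tested) and fibroblast markers 1.197 (6 tested, all higher). The 6 were Cd22, Cxcr5, Ms4a2, Pdgfra and Cdx2, higher with Dnmt3a+/Δ BM, and Lgals4, lower. Many of these medians rested on 1 tumor. Without Dnmt3a+/Δ BM tumor 2 they were -0.03 for leukocyte, 0.08 for macrophage, -0.23 for mast cell, -0.13 for plasma cell, 0.60 for lymphoid follicle and 0.24 for fibroblast markers. Leaving out Dnmt3a+/Δ BM tumor 3 gave 0.22 for lymphoid follicle, 0.76 for B cell and -0.58 for smooth muscle markers, and leaving out Dnmt3a+/+ BM tumor 1 gave -0.12 for NK cell markers. With each tumor left out in turn, lymphoid follicle markers ran from 0.22 to 2.77, mast cell markers from -0.23 to 4.17, plasma cell markers from -0.13 to 4.77 and dendritic cell markers from 0.04 to 0.75.

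**Figure D5:**
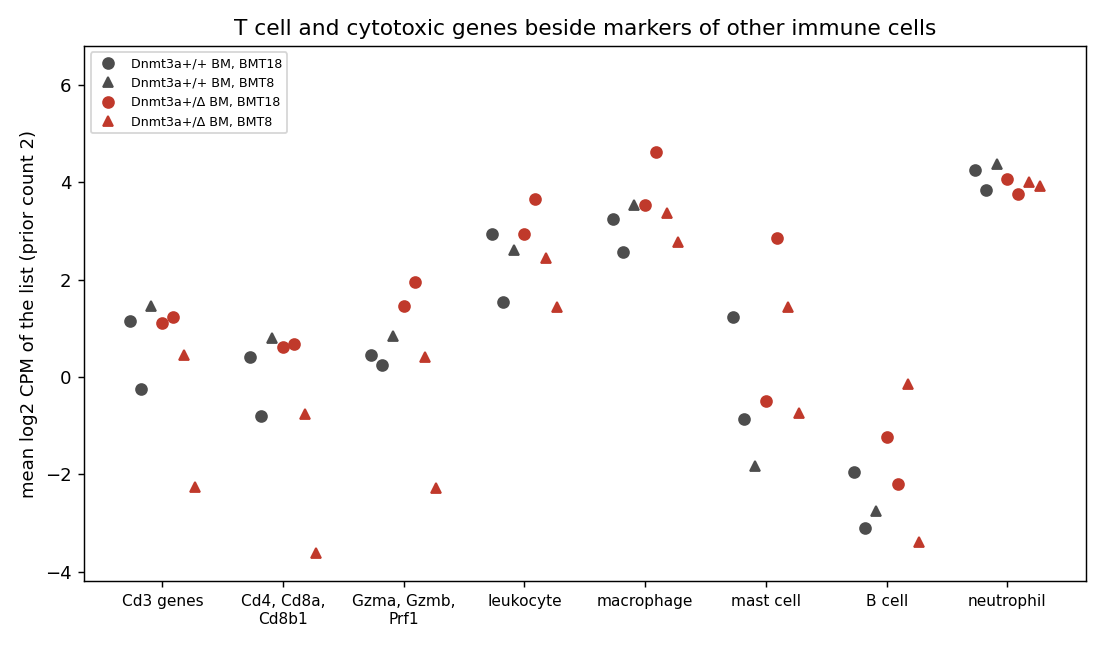
Mean log2 CPM (prior count of 2) of the Cd3 genes, the coreceptor genes, the granule genes and 5 lists of immune cell markers in each tumor, with colors for the graft and shapes for the experiment. In Dnmt3a+/Δ BM tumor 4 the points lie apart below the other tumors in the T cell and granule genes, and close to other tumors in the leukocyte, macrophage and neutrophil markers.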

How the data were processed

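Polyadenylated RNA of 7 whole colon tumors was sequenced by the study. The authors trimmed reads with Trimmomatic, aligned them with STAR to mm10 (GRCm38) and estimated counts per gene with RSEM. The deposited values are those estimated counts, 1 column per tumor, all whole numbers and not normalized. From them, the grafts were compared in R 4.3.3 by the quasi-likelihood test of edgeR 4.0.16 on 15810 genes kept by filterByExpr, with TMM scaling, no covariate and the Benjamini-Hochberg method. A call needed both an adjusted p under 0.05 and a log2 fold change beyond 1 in size. Log2 CPM used a prior count of 2. Symbols matched 42462 identifiers, and genes without one held 0.104% of counts. Positions and lengths are from GENCODE M21.

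Each library is 1 tumor, and intervals and floors cover counting error only. The members and gene lists were chosen with earlier results of these data known. Named beside the members were list genes with an unadjusted p under 0.05, the 3 most abundant genes of a list where they added a value, defining markers (Ptprc, Trac, Ncr1, Csf1r, Cpa3 and Epcam; 1 other is not reported here), and the 10 genes most correlated with the Cd3 mean. Lat, Trbc1, Trbc2, Il2ra, Ctla4, Ikzf2, Tnfrsf18, Cxcr2 and Nkg7 were also named after their values were seen. The comparison was repeated with DESeq2 1.42.0, with another scaling or filter, with experiment or replicate number as a term, BMT18 alone and leaving out each tumor. Both tests were tried on simulated data with known changes.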

Additional observations from a re-analysis of the deposited data

Results flagged for a closer look

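Values of single genes, ratios and lists were checked in the 4 Dnmt3a+/Δ BM tumors for 1 tumor far from the others, 77 values in all, of which chance would flag about 1 in 20, or 3.85. There were 5. Dnmt3a+/Δ BM tumor 4 stood apart on the low side in Cd3d, at -2.98 log2 CPM, and in Cd8a, at -4.47 log2 CPM. Dnmt3a+/Δ BM tumor 2 stood apart on the high side in Il1rl1, at 223.6 CPM, and in the fibroblast markers, with a mean log2 CPM of 6.03. Dnmt3a+/Δ BM tumor 1 stood apart on the low side in Cd244a, at 2.44 log2 CPM. Of the 4, it alone lacks the further 2 in its label.

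In 5 genes every tumor moved 1 way in BMT18 and the opposite way in BMT8. The group effect in BMT8 minus that in BMT18 was -2.49 on the log2 scale for Cd3e, -2.54 for Cd8a, -5.17 for Cd8b1, -3.65 for Gzma and -2.38 for Gzmb. The test of that difference in edgeR gave an unadjusted p of 0.0263 for Cd8b1 and of 0.0644 to 0.304 for the others, with an adjusted p of 1.0 for all 5.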

How the results depend on the processing

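The count of called members was 0 under every alternative run, and edgeR called 0 genes in all its alternatives (1744 at an unadjusted p under 0.05 with all tumors), whereas DESeq2 called 300. The members' median of -0.19 lay between -0.61 and 0.21 with each tumor left out in turn and was -1.81 within BMT8. The signs of single members were less firm. Within BMT18, from BMT18 alone and from the fit of both experiments, the log2 fold changes were 0.56 and 0.55 for Cd3d, 0.72 and 0.71 for Cd3e, 0.46 and 0.45 for Cd3g, 0.38 and 0.37 for Cd8a, 1.197 and 1.194 for Cd8b1, and 1.38 and 1.37 for Gzma, all above 0 where the values of all 7 tumors were below. Within BMT8, Cd4 (-1.47), Foxp3 (-0.14) and Gzmb (-1.03) were below 0. Scaling by library size only gave 0.10 for Cd3e and 0.25 for Gzma, no filter gave 0.0069 for Gzma, and the experiment as a covariate gave -0.14 for Cd4. Leaving out 1 tumor gave ranges of -0.82 to 0.037 for Cd3d, -0.52 to 0.19 for Cd3e, -0.61 to 0.63 for Cd4, -1.39 to 0.35 for Cd8b1, -0.62 to 0.67 for Gzma and -0.13 to 0.99 for Gzmb. Without Dnmt3a+/+ BM tumor 3 the values were 0.037 for Cd3d, 0.07 for Cd3e, 0.35 for Cd8b1 and 0.67 for Gzma; without Dnmt3a+/+ BM tumor 2, Cd4 was at -0.30; without Dnmt3a+/Δ BM tumor 3, Gzma was at 0.12. The cause was not tested.

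The sample labels gave no pairing of tumors by replicate number. Correlations of the deviations of same-numbered tumors were 0.57, 0.07 and -0.04. They cannot decide whether tumors are paired, since same-numbered tumors share an experiment and differently numbered tumors were not compared. With the replicate number as a block, 0 genes were called, the members' median was 0.23, and Cd3d (0.19), Cd3e (0.23), Cd8b1 (0.0099) and Gzma (0.53) were above 0. Levels near 0 limit Prf1, Cd8b1 and Foxp3 most. Of all 592 values recomputed under an alternative, 531 were counted as kept. They kept their sign and side of the threshold or, where there was no test, moved by less than the spread between tumors. That spread was 1.41 for the members' median, so its change of sign within BMT18 (0.80) is among the 531. With no gene called by edgeR from all tumors, the side of the threshold could change only by a gained call. The 531 are therefore no measure of how firm the directions are.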
